A study of Mus musculus with 2254 samples.

Results

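The 10 genes described here encode potassium channels of vascular cells, namely Kcnj8, Abcc9, Kcna5, Kcna2, Kcnma1, Kcnmb1, Kcnj2, Kcnj12, Kcnk3 and Kcnh1, and were chosen by gene name from the 30950 entries of a table of reads per gene and cell. All 10 were found in the table. The cells came from brains of adult C57BL/6 mice carrying SM22-Cre and Rosa26-stop-tdTomato, a combination in which the SM22 promoter of smooth muscle switches on a red reporter, and were labelled Notch3 KO or Notch3 WT. Both genotypes carried the reporter alleles, so no group was free of them. Cells were sorted by fluorescence into 384-well plates and sequenced with Smart-seq2, a method that amplifies polyadenylated RNA over its full length. The sources used here give neither the sort gate nor the kind of Notch3 KO allele.

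The cell names gave 3 KO plates (043, 467 and 471) and 3 WT plates (044, 468 and 469). No animal was named, so each genotype was 1 sample, plates may share animals, and no test between genotypes was possible. Values are therefore given per plate, and SDs over plates describe these plates only. Of 2254 cells, 2252 were kept, and the median number of reads per cell ran from 250864 to 358168 between plates. Notch3, the targeted receptor, was lower on each KO plate than on each WT plate in all 3 mural classes with enough cells, at 56.9 to 139 mean CPM per cell (reads scaled to a cell total of 1000000) on KO plates and 139 to 1467 on WT plates. A Notch3 read was still found in 61.6% to 80.4% of the cells of these classes on KO plates. WT plate 044 held the lowest WT values (139, 221 and 328 CPM). Plates 043 and 044 have numbers far from those of the other 4, so the other 4 are called the later plates. This name refers to the plate number alone, since the labels give no date, order or batch.

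Potassium channels set the membrane potential of the contractile cells around vessels (smooth muscle cells and pericytes, together called mural cells): when they open, the membrane hyperpolarises, voltage-gated calcium entry falls and the vessel relaxes. Kcnj8 encodes Kir6.1 and Abcc9 the sulfonylurea receptor SUR2, the pore and the regulatory subunit of the vascular ATP-sensitive channel, a known feature of brain pericytes. Kcna5 and Kcna2 encode the voltage-gated subunits Kv1.5 and Kv1.2, Kcnma1 the pore of the large-conductance calcium-activated (BK) channel and Kcnmb1 its beta1 subunit, which raises calcium sensitivity in smooth muscle. Kcnj2 and Kcnj12 encode the inward rectifiers Kir2.1 and Kir2.2, Kcnk3 the background channel TASK-1, and Kcnh1 the voltage-gated channel Eag1.

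Mural cells were divided into 4 ranges by marker genes alone, without reading any of the 10 genes. Among cells with high contractile genes (Acta2, Tagln and Myh11), Cnn1, a calponin of arterial smooth muscle, marked 524 Cnn1-high cells. Cells without high Cnn1 were called Rgs5-high transitional (401 cells) when pericyte markers (Rgs5, Vtn, Higd1b and Atp13a5) were high, and Cnn1-low (261 cells) otherwise. Cells with low contractile genes and pericyte markers were called pericyte-like (35 cells). The ranges are stretches of a continuum: 184 of the 1221 placed mural cells lay within 0.5 log2 units of the pericyte-marker cut. The other classes used here were 215 endothelial-like, 202 ependymal-like, 170 fibroblast-like and 271 astrocyte-like cells. Defining markers of the classes were high, with mean levels of 1997 CPM for Cldn5 in endothelial-like cells, 1053 CPM for Ccdc153 in ependymal-like cells and 4475 CPM for Myh11 in Cnn1-high cells.

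Kcnj8 (chr6:142564837-142571614) and Abcc9 (chr6:142587862-142702315) are neighbours on the minus strand of GRCm38, 16247 bases apart, and Kcna5 (chr6:126532551-126535412) lies on the same strand of that chromosome. These 3 upstream sequences are shown because Kcnj8 and Abcc9 had alike patterns along the mural range and Kcna5 a different one. Each runs 5′ to 3′ over the 250 bases before the RefSeq start (GRCm38.p6, minus strand), with matches to TGGGAA (the core of sites for RBPJ, the DNA-binding partner of Notch) and to CANNTG (the E-box) in capitals, on either strand. In Kcna5 the second TGGGAA match and the E-box overlap by 2 bases.
Kcnj8, chr6:142571615-142571864: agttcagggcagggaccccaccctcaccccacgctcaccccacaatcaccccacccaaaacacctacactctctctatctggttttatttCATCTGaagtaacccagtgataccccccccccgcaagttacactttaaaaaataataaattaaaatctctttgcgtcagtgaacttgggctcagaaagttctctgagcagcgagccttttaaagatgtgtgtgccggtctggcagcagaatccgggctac
Abcc9, chr6:142702275-142702524: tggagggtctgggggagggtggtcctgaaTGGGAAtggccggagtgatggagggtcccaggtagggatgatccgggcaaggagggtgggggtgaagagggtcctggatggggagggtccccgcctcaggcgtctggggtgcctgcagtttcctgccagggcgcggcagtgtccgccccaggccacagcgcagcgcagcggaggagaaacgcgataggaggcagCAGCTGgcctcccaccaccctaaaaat
Kcna5, chr6:126535556-126535805: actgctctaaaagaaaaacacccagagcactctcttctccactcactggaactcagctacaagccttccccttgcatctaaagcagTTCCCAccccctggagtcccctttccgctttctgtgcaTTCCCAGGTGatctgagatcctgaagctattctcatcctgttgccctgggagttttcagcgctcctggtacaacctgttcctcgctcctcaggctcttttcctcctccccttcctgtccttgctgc
Over the 9 of 10 genes with a RefSeq promoter in the table, TGGGAA matched in Abcc9 (1 match) and Kcna5 (2 matches). It matched in 21.5% of 27025 mouse promoters of the same length. An E-box matched in 6 of the 9 and in 66% of all promoters. The CArG box, the site of serum response factor, matched in 0 of the 9 and in 1.4% of all. These matches are letters in a window and show no binding.

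Along the mural range the 10 genes fell into 4 patterns. Kcnj8 and Abcc9 increased towards pericyte-like cells, Kcna2 and Kcnma1 decreased, Kcnmb1, Kcnj12 and Kcnk3 were present throughout the smooth muscle and transitional ranges, and Kcna5 was present from Cnn1-high to transitional cells with no read in any pericyte-like cell. Kcnj2 and Kcnh1 stayed near 0 in nearly all mural plates. A gene was counted as different between 2 ranges when its mean within-plate difference in log2(CPM + 1) was at least 2-fold, its sign was the same on every plate, and it reached 10 CPM and 10% of cells in 1 range or the other. Between transitional and Cnn1-high cells (5 plates with at least 10 cells of both), 2 of the 10 genes were higher and 2 lower by this rule. Over all 9657 genes measured there, 3.75% were higher and 3.13% lower. Between Cnn1-low and Cnn1-high cells (6 plates), 1 gene was higher and 1 lower, against 1.08% and 1.91% of 9601 genes. Between pericyte-like and Cnn1-high cells (plates 043, 467 and 468, with at least 5 pericyte-like cells), 2 were higher and 4 lower, against 8.71% and 17% of 10301 genes. Between pericyte-like and transitional cells on the same plates, Kcnj8 and Abcc9 were higher and Kcna5 and Kcnmb1 lower, against 7.49% and 14% of 10132 genes.

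**Figure D1:**
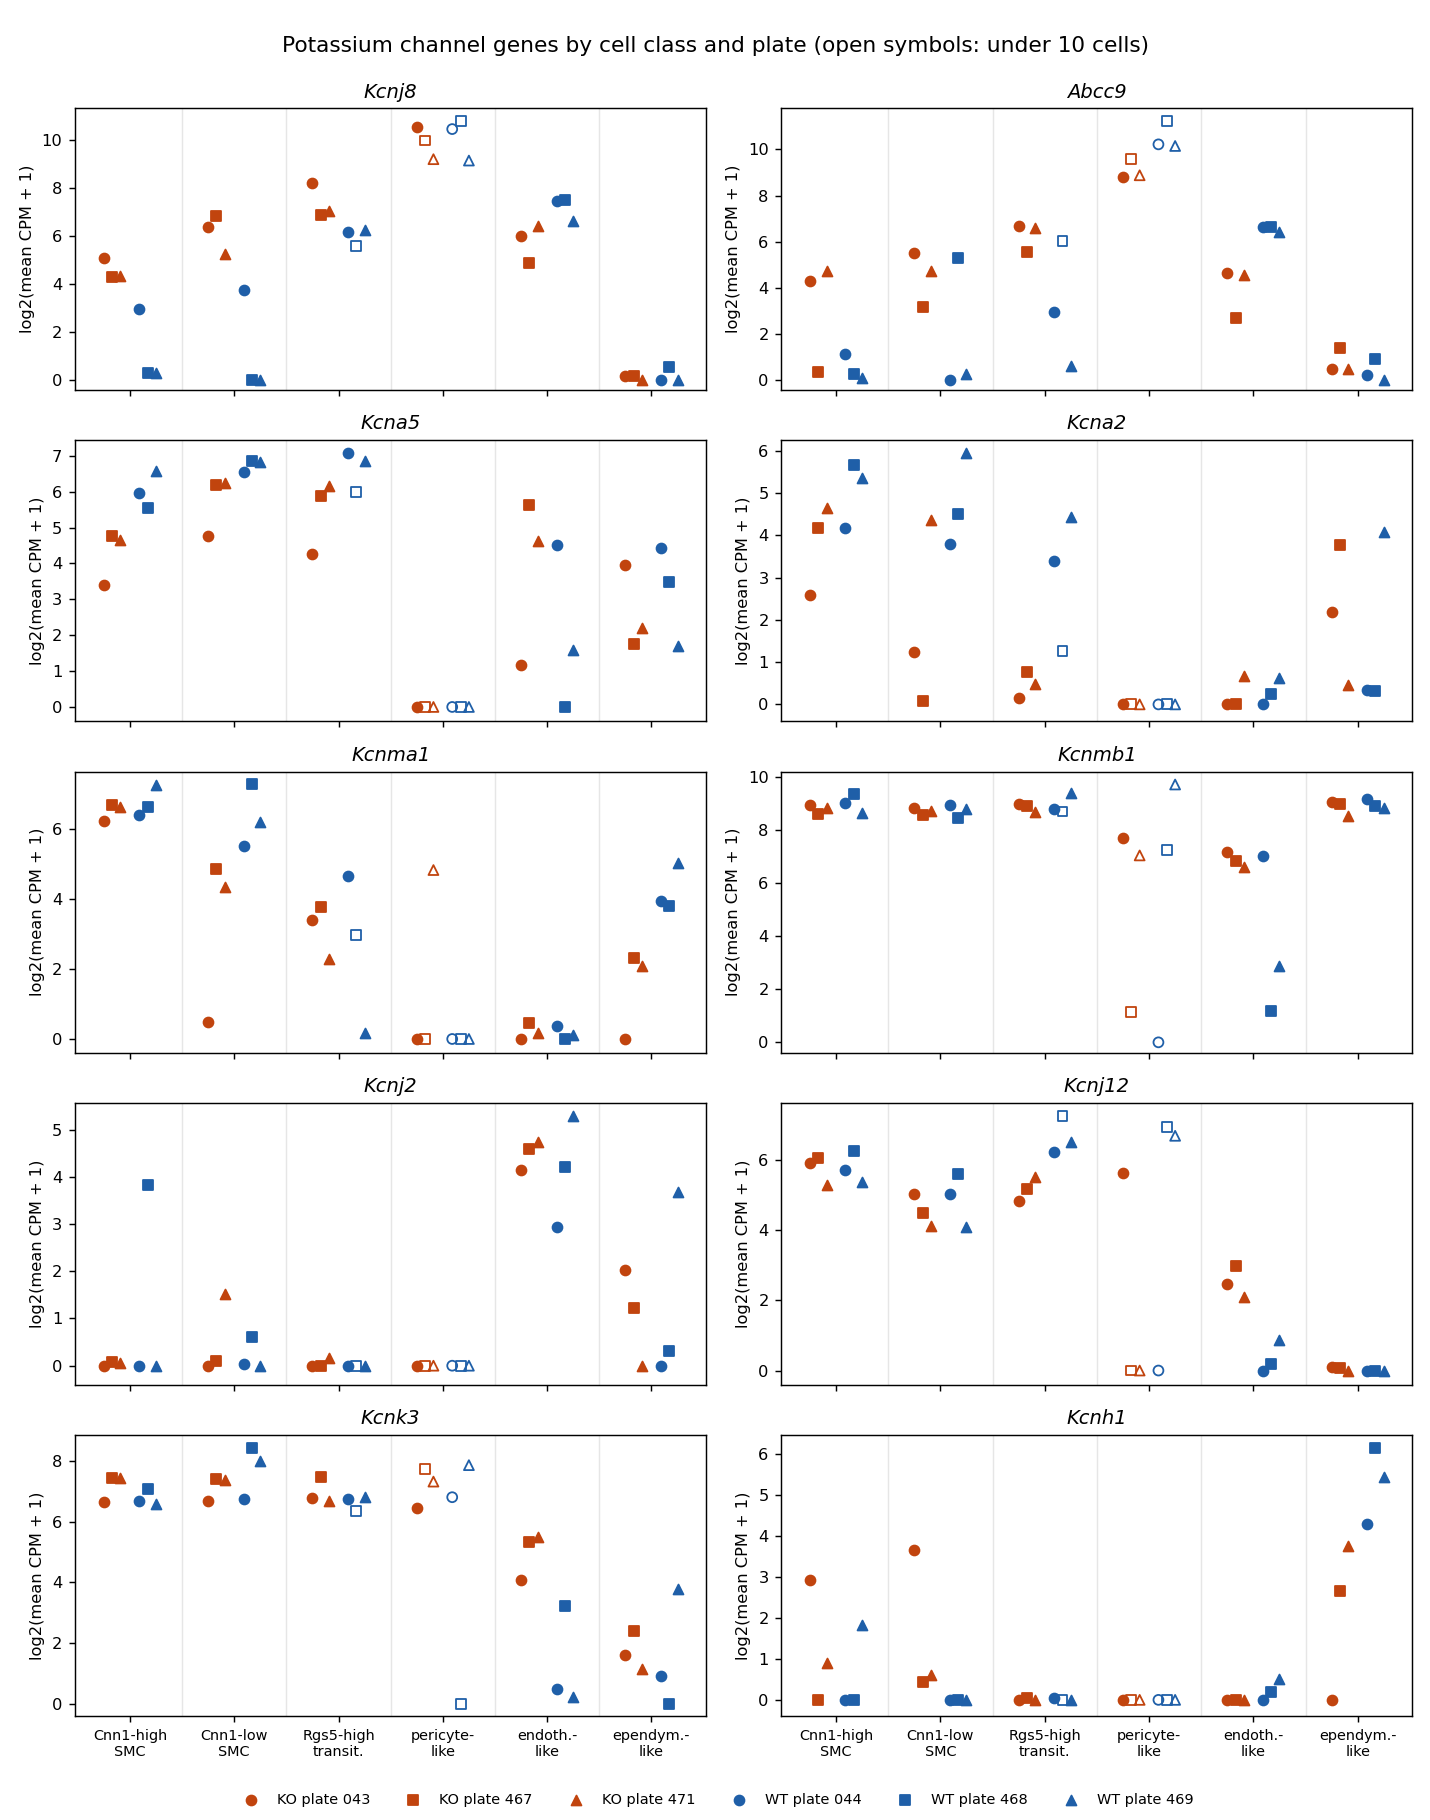
Level of each gene, as log2 of the mean CPM per cell plus 1, in 6 cell classes (x axis); each symbol is 1 plate, KO in orange and WT in blue, open where the plate held under 10 cells of the class, and the vertical scale differs between panels. Kcnj8 and Abcc9 are highest in pericyte-like cells, Kcnmb1 lies between 349 and 668 CPM on every plate of the 3 smooth muscle and transitional classes, and Kcna5 is at 0 in pericyte-like cells.

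The subunits of the ATP-sensitive channel increased along the range. Kcnj8 stood at 33.6, 18.9 and 19.3 CPM on KO plates 043, 467 and 471 and at 6.78, 0.221 and 0.219 CPM on WT plates 044, 468 and 469 in Cnn1-high cells. In transitional cells it stood at 296, 116 and 132 CPM on the KO plates and at 71.3, 47.1 and 76.2 CPM on the WT plates, the plate with 47.1 CPM holding 9 cells. In pericyte-like cells it reached 1531, 1024 and 595 CPM on the KO plates and 1423, 1784 and 572 CPM on the WT plates, from 12, 6, 4, 1, 9 and 3 cells. On every plate the level was thus higher in transitional than in Cnn1-high cells and highest in pericyte-like cells. The rise from Cnn1-high to transitional cells was 3.51 log2 units (SD 1.41, higher in 5 of 5 plates), and from Cnn1-high to pericyte-like cells 7.22 (SD 2.85, 3 of 3 plates). At least 1 Kcnj8 read was found in 45 of 524 Cnn1-high cells (8.59%, exact 95% interval 6.33% to 11.3%), 16.1% of Cnn1-low, 29.2% of transitional and 88.6% of pericyte-like cells. After each cell was thinned to 50000 reads the shares were 5.34%, 13.4%, 26.7% and 88.6%. Ependymal-like cells, in which the gene was near 0 CPM, had 2.97% and 0.495% on the same 2 counts, with median depths of 296142 reads there and 300722 in Cnn1-high cells. Intervals cover counting error alone, because PCR copies of a molecule cannot be recognised without molecular identifiers.

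Abcc9 followed the same order at lower levels in the contractile ranges. It stood at 18.9, 0.295 and 26.0 CPM on the KO plates and 1.18, 0.221 and 0.0916 CPM on the WT plates in Cnn1-high cells, and at 452, 772 and 470 CPM against 1191, 2381 and 1135 CPM in pericyte-like cells. The groups of plates overlapped in Cnn1-high cells, and in pericyte-like cells each WT plate was above each KO plate, though these rest on 1 to 12 cells a plate. The rise from Cnn1-high to transitional cells was 2.36 log2 units (SD 1.72, 5 of 5 plates) and to pericyte-like cells 8.22 (SD 3.32, 3 of 3 plates). The exons of Abcc9 overlap an antisense gene model, 5330439B14Rik, and without a stated strand setting reads of the 2 cannot be told apart. Kcnj8 and Abcc9 were found together in 45 of 401 transitional cells, where the product of their shares gives 26.8, and in 29 of 35 pericyte-like cells, where it gives 28.3. Over the 41 plate and class combinations with at least 10 cells, Kcnj8 was the gene whose level correlated best with that of Abcc9 (Pearson r = 0.762). For Kcnj8 the 3 best were Lin7a (0.838), Car4 (0.80) and Thbd (0.786). These points share plates and libraries, so the correlations are descriptions.

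The pericyte-like cells were of 2 kinds, split unevenly between plates and so between genotypes. Of 13 cells with Acta2 under 16 CPM, 12 were WT, and of 22 cells with more Acta2, 21 were KO. The 12 WT cells came from plates 468 (9 cells) and 469 (3 cells). WT plate 044 gave 1 pericyte-like cell, which was of the kind with more Acta2. Cells with little Acta2 had 4368 CPM of Atp13a5, a capillary pericyte marker, and those with more Acta2 had 152 CPM, along with 2252 against 235 CPM of the collagen gene Col3a1. Kcnj8 was alike in both, at 1521 and 1196 CPM, while Abcc9 stood at 1976 CPM in the first and 559 CPM in the second. With 1 KO plate holding 10 pericyte-like cells and no WT plate, no genotype difference was computed for this class at that minimum. At 5 cells a plate, KO plates 043 and 467 against WT plate 468 differed by -0.51 log2 units for Kcnj8 and -2.01 for Abcc9. Kcnk3 stood at 148 CPM on the KO plates against 0 on the WT plate of 9 cells, and Kcnj12 at 24.1 against 122 CPM (-4.13). The Kcnj12 value had an SD of 3.97 over the KO plates. It rested on reads in only 11.1% of 18 KO and 11.1% of 9 WT cells. Genotype, plate and kind of cell cannot be told apart there.

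The voltage-gated subunits had a different range. Kcna5 was at 43.4 CPM in Cnn1-high cells and 81.8 CPM in Cnn1-low cells as means over 6 plates, a rise of 1.09 log2 units (SD 0.54, higher in 6 of 6 plates). In transitional cells it was 0.98 above Cnn1-high cells (SD 0.45, 5 of 5 plates), just short of 2-fold. It then fell to 0 reads in all 35 pericyte-like cells, which allows a share of up to 8.57% of cells, from 21.0%, 30.3% and 28.9% of cells with a read in the 3 other ranges. Thinned, those shares were 18.7%, 26.1% and 27.4%, against 3.96% of ependymal-like cells (4.95% before thinning). Its 3 most alike genes over the 41 combinations were Cdh6 (r = 0.909), Pip5k1b (0.888) and Sncg (0.885).

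Kcna2 (chr3:107101146-107115005) was low in mural cells, at 5.04 to 50.1 CPM over the 6 plates in Cnn1-high cells. Transitional cells had less, with a difference of -2.34 log2 units (SD 1.49, lower in 5 of 5 plates). With WT plates alone the difference was -0.84 and with KO plates alone -3.33. Astrocyte-like cells, nearly all from WT plates 468 and 469, had more of it, at 99.4 and 143 CPM and in 43.2% of cells (35.8% thinned), against 12.2% of Cnn1-high cells (8.59% thinned). Of 524 Cnn1-high cells, 24 held both Kcna5 and Kcna2 reads, where the product of their shares gives 13.4.

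The BK channel subunits parted along the range. Kcnma1 (chr14:23289431-24014491), the pore gene, was at 74.9, 104 and 99.4 CPM on the KO plates and 84.4, 99.9 and 153 CPM on the WT plates in Cnn1-high cells. In transitional cells it was at 9.64, 12.6 and 3.88 CPM on the KO plates and 24.2, 6.85 and 0.124 CPM on the WT plates. No transitional plate reached the lowest Cnn1-high plate, and the difference was -3.80 log2 units (SD 2.06, lower in 5 of 5 plates). A read was found in 34.0% of Cnn1-high, 14.9% of Cnn1-low, 8.73% of transitional and 1 of 35 pericyte-like cells. Exons of the gene overlap an antisense model, 4930519K11Rik. Kcnmb1 (chr11:33963013-33973641), the beta1 gene, was at 386 to 654 CPM over the 6 plates in Cnn1-high cells, 349 to 486 CPM in Cnn1-low cells and 408 to 668 CPM in transitional cells. The transitional level differed from the Cnn1-high level by 0.14 log2 units (SD 0.39), less than the spread between plates. In pericyte-like cells it was lower on 3 of 3 plates (-3.60, SD 3.37), at 208, 1.21 and 151 CPM on plates 043, 467 and 468. The 2 subunits were detected together in 152 of 524 Cnn1-high cells, where the product of the shares gives 154.9.

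Kcnmb1 was as high in ependymal-like cells as in smooth muscle. It stood at 530, 499 and 363 CPM on the KO plates and 568, 472 and 458 CPM on the WT plates, with reads in 92.1% of 202 cells (exact interval 87.5% to 95.4%, 89.1% thinned). Fibroblast-like cells had 0.474 to 2.39 CPM over the 6 plates and 21.8% of cells with a read, which fell to 3.53% on thinning. The pore gene was at 0 to 31.6 CPM in ependymal-like cells, and 10.9% of these cells had a Kcnma1 read. Smooth muscle markers were uneven there, with Myh11 at 4.41 CPM, Acta2 at 1049 CPM and Tagln at 92.8 CPM and in 74.3% of cells, and the pericyte marker Rgs5 was at 4.34 CPM. The genes most alike to Kcnmb1 over the 41 combinations were Rbm24 (r = 0.966), Mamdc2 (0.934) and Atp1b1 (0.899), and those for Kcnma1 were the gene models Gm37800 (0.765) and Gm14453 (0.757) and Synpo2l (0.733).

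The background and inward rectifier genes were spread over the contractile ranges. Kcnk3 (chr5:30588170-30625271) was at 94.7 to 172 CPM over the plates in Cnn1-high cells, 102 to 343 CPM in Cnn1-low cells and 80.0 to 177 CPM in transitional cells. Its steps between these ranges (0.46, SD 0.71, and -0.05, SD 0.39) were smaller than the spread between plates. The share of cells with a Kcnk3 read was 57.9% to 64.1% in these 3 ranges, 37.1% of pericyte-like cells and 5.29% of fibroblast-like cells. An antisense model, Gm9899, overlaps its exons. Kcnj12 (chr11:61022564-61071131) was at 38.2 to 74.2 CPM in Cnn1-high cells and lower in Cnn1-low cells (-1.04 log2 units, SD 0.36, lower in 6 of 6 plates), and it returned to 27.5 to 150 CPM in transitional cells (-0.02 against Cnn1-high cells, SD 0.94). In pericyte-like cells both genes differed in sign between the 3 plates used there. Genes most alike to Kcnk3 were Myom1 (0.945), Map3k7cl (0.930) and Jph2 (0.924), and those for Kcnj12 were Gm16336 (0.897), Tmem200b (0.896) and Sntb1 (0.896).

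Kcnj2 (chr11:111066164-111076821) was found mainly in endothelial-like cells. It was at 16.7, 23.0 and 25.6 CPM on the KO plates and 6.70, 17.4 and 38.2 CPM on the WT plates in endothelial-like cells, with reads in 12.6% of 215 cells (exact interval 8.44% to 17.7%, 11.2% thinned). Over all mural cells it was found in 11 cells, and WT plate 468 gave the one mural value above 2 CPM (13.1 CPM in 14 Cnn1-high cells). Kcnh1 (chr1:192190774-192510159) was found in 10 of the 1221 mural cells, and was highest in ependymal-like cells.

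Levels of different genes can be compared only per length of transcript. Per kilobase of annotated exon, Kcnmb1 led in Cnn1-high cells (114 CPM per kb), followed by Kcnk3 (31.4), Kcnj12 (18.8), Kcna5 (13.6), Kcnj8 (6.36), Kcnma1 (5.40), Kcna2 (1.52) and Abcc9 (1.24), as means over the cells of both genotypes together. In pericyte-like cells the order was Kcnj8 (517 CPM per kb), Abcc9 (130), Kcnmb1 (47.0), Kcnk3 (26.7) and Kcnj12 (20.5), with the others at 0.186 or less. Exon lengths were unions over all annotated transcripts, so a gene with long rare exons is set too low: that of Kcnma1 was 16976 bases.

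**Figure D2:**
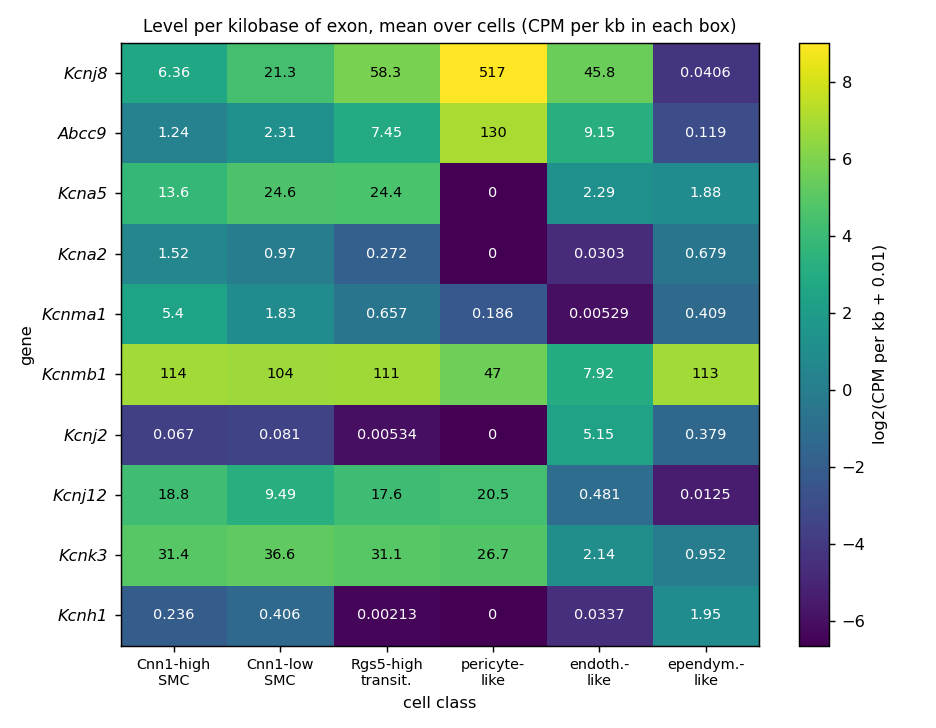
Mean level over cells per kilobase of exon (number in each box, CPM per kb) for the 10 genes in 6 cell classes, coloured on a log2 scale with 0.01 added. Kcnmb1 is above 100 in the 3 smooth muscle and transitional classes and in ependymal-like cells, and Kcnj8 reaches 517 in pericyte-like cells.

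Kcnj8 was higher on KO plates and Kcna5 lower in all 3 contractile ranges (Cnn1-high, Cnn1-low and transitional). Each difference is the KO minus the WT mean over plates of log2(CPM + 1). A gene met the size rule when the difference was at least 2-fold, no KO plate fell within the span of the WT plates or the reverse, and the gene reached 10 CPM and 10% of cells in 1 genotype. In Cnn1-high cells 8 of the 10 genes were measured by these minima, of which 1 was higher and 1 lower in KO by this rule, where the share of the 9639 genes measured was 3.63% and 1.11%. In Cnn1-low cells 7 were measured, 1 higher and 2 lower, against 5.19% and 1.84% of 9738 genes. In transitional cells 7 were measured, 2 higher and 2 lower, against 6.03% and 2.89% of 9650 genes. The plates stood apart for 2, 3 and 4 of the measured members in these ranges, against 10.1%, 11.3% and 22.7% of all measured genes. At any size 5, 5 and 3 were lower in KO, against 41.9%, 38% and 45.2%. The median difference over measured members was -0.12, -0.35 and 0.21 in these 3 ranges, and over all measured genes 0.10, 0.21 and 0.07. A gene that reached the 10 CPM and the 10% of cells in 1 genotype alone could meet the rule in 1 direction only. Of the genes that met it, this held, through KO, for Kcnj8 in Cnn1-high and Cnn1-low cells and Abcc9 in transitional cells.

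**Figure D3:**
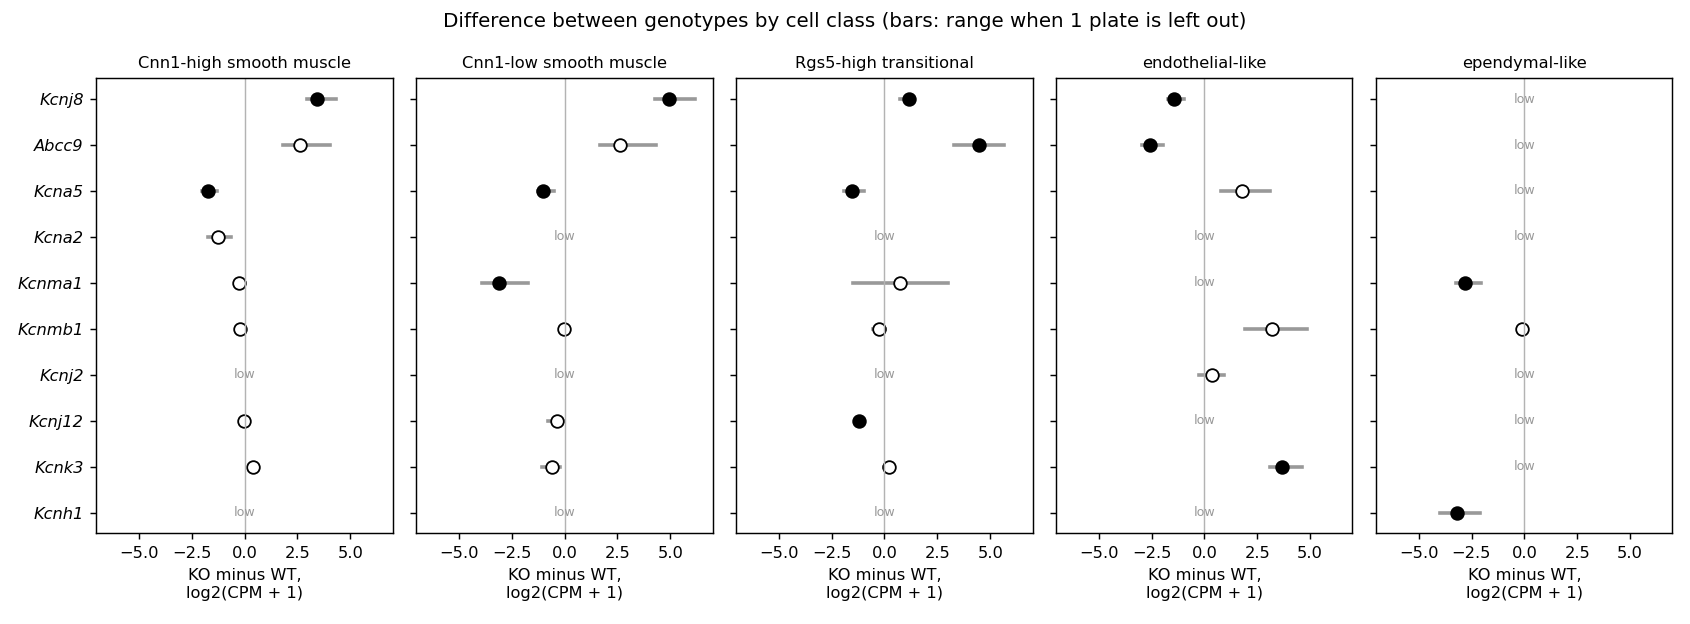
KO minus WT difference in log2(CPM + 1) for each gene in 5 cell classes; filled circles met the size rule, open circles did not, grey bars give the lowest and highest value when 1 plate is left out, and "low" marks genes under the minimum level. Kcnj8 is on the KO side and Kcna5 on the WT side in the 3 mural classes.

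In Cnn1-high cells the Kcnj8 difference was 3.41 (SD 0.45 over KO and 1.54 over WT plates), from the plate values given above, and every KO plate was above every WT plate. Each plate weighs the same, though WT plates 468 and 469 held only 14 and 26 such cells. WT plate 044 held 195 and the KO plates 59 to 118. Plates 468 and 469 also held 175 and 93 astrocyte-like cells, against 0 to 2 on each other plate. Reads were found in 33 of 289 KO cells (11.4%, exact interval 7.99% to 15.7%) and 12 of 235 WT cells (5.11%, 2.67% to 8.75%). Thinned, the shares were 8.30% and 1.70%, against 0.495% of ependymal-like cells. Thinned, or without KO plate 043, the difference was 3.12 and 3.15, and the share of cells with a read was under the 10% minimum of the rule. Between plates 043 and 044 it was 2.15, and between the later plates 4.04, where the rule was not met.

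In Cnn1-low cells Kcnj8 stood at 83.1, 114 and 37.5 CPM on the KO plates and 12.5, 0 and 0 CPM on the WT plates. The WT plates at 0 held 10 and 12 cells. The difference was 4.92 (SD 0.81 and 2.17), and 21.6% of KO and 5.56% of WT cells had a read (18.1% and 4.44% thinned). With 2 WT plates at 0 its size depends on the pseudocount: it was 7.15 with 0.1 CPM and 2.64 with 10 CPM. With plates of at least 20 cells, which leaves out both, it was 2.41, and without WT plate 044 6.17. In transitional cells it was 1.16 (SD 0.73 and 0.07), with reads in 33.6% of KO and 16.5% of WT cells, the WT values resting on plates 044 and 469. That difference was 2.04 between plates 043 and 044 and 0.69 between the later plates, and without KO plate 043 it fell to 0.74, under 2-fold. When cells were placed by cluster it changed sign, to -0.62.

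Abcc9 was higher on KO plates in transitional cells, at 103, 45.8 and 97.1 CPM against 6.89 and 0.560 CPM on WT plates 044 and 469, a difference of 4.48 (SD 0.64 and 1.65). WT plate 468, left out for holding 9 cells, had 64.8 CPM, and with it the plates overlapped and the difference was 3.07. When cells were placed by cluster the difference changed sign, to -0.87. In Cnn1-high and Cnn1-low cells the differences were 2.63 and 2.63 with overlapping plates. In Cnn1-high cells the difference was 3.19 between plates 043 and 044, where a single plate per genotype cannot overlap. The plates stood apart and the rule was met between the later plates (2.36) and without WT plate 044 (2.94). In both, the lowest KO and the highest WT plate were nearly level and very low, as their values above show. Abcc9 reached the minimum level and share of cells only in KO in this range, so it could meet the rule only as higher. In Cnn1-low cells the difference was 5.52 between plates 043 and 044, and the rule was not met between the later plates (1.18). From Cnn1-high over Cnn1-low to transitional cells, 11.8%, 25.1% and 28.5% of KO cells and 2.55%, 5.56% and 7.22% of WT cells had an Abcc9 read. Thinned, the KO shares were 6.57%, 13.5% and 23.7%. The thinned WT shares were 0.426%, 2.22% and 4.72%, the last with plate 468 included. Ependymal-like cells, at 0 to 1.63 CPM over the plates, had 8.91% (2.48% thinned), not far from the unthinned KO share in Cnn1-high cells.

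Other markers moved in part with the ATP-sensitive channel genes. The summed level of the 10 pericyte markers, which held neither gene, was 2540 to 3149 CPM on the KO and 2022 to 2784 CPM on the WT plates in Cnn1-high cells, which overlap. In Cnn1-low cells it was 5182 to 6175 CPM on the KO and 4342 to 4614 CPM on the WT plates, which do not overlap. The transitional sums were 9963 to 12554 CPM and 9535 to 10318 CPM. Within KO Cnn1-high cells those with a Kcnj8 read had a median pericyte-marker level of 4.91 log2 units, and those without 3.83. In WT Cnn1-high cells the order was the other way round, at 1.73 and 3.85. Endothelial markers summed to 12.5 to 118 CPM on all plates of the 3 ranges. The part of these markers in the genotype difference was not tested.

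Kcna5 was lower on KO plates. In Cnn1-high cells it stood at 9.64, 26.2 and 24.0 CPM on the KO plates and 60.8, 45.4 and 94.2 CPM on the WT plates. Every KO plate was below every WT plate, and the difference was -1.75 (SD 0.75 and 0.52). The share of cells with a read was 12.5% in KO (36 of 289, exact interval 8.88% to 16.8%) and 31.5% in WT (74 of 235, 25.6% to 37.8%), and 11.1% and 28.1% after thinning. This difference met the size rule under each of the 19 alternatives run for it, with values from -2.54 to -1.28. Some of these could not change the value, such as a minimum of 5 cells per plate. Asking for 20 cells per plate was the same as leaving out WT plate 468.

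In Cnn1-low cells Kcna5 was at 26.0, 72.4 and 74.7 CPM on the KO and 92.3, 114 and 112 CPM on the WT plates (-1.0, SD 0.85 and 0.17), on the edge of the 2-fold limit. The rule was met under 10 of 19 alternatives, among them those that could not change the value, and without KO plate 043 the difference was -0.51. In transitional cells it was at 18.1, 57.8 and 70.2 CPM on the KO plates and 135 and 115 CPM on WT plates 044 and 469. The difference was -1.54 (SD 1.02 and 0.16), and -0.96 without KO plate 043. WT plate 468, with 9 transitional cells, had 62.2 CPM, and with it the plates overlapped. Between plates 043 and 044 the 3 differences were -2.54, -1.79 and -2.83, and between the later plates -1.35, -0.61 and -0.84.

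Kcna2 was lower in KO as well but did not meet the rule. In Cnn1-high cells it was at 5.04, 17.0 and 24.1 CPM on the KO and 17.1, 50.1 and 39.7 CPM on the WT plates (-1.26, SD 1.08 and 0.78), and the plates overlapped. The share of cells with a read went the other way, at 13.1% in KO and 11.1% in WT. In the other 2 ranges Kcna2 reads were found in under 10% of the cells of either genotype. Without WT plate 044 the rule was met in all 3 ranges, at -1.70, -3.34 and -3.97. In Cnn1-low and transitional cells the 10% was then reached only in WT, so the gene could meet the rule only as lower. WT rested there on 10 and 12 Cnn1-low cells of plates 468 and 469, and on 21 transitional cells of plate 469.

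Kcnma1 differed by genotype in Cnn1-low cells, with 0.405, 28.4 and 19.4 CPM on the KO plates and 44.9, 156 and 73.6 CPM on the WT plates. The groups did not overlap, and the difference was -3.10 (SD 2.40 and 0.89), with reads in 18 of 171 KO cells and 21 of 90 WT cells. When mural cells were placed by cluster instead of by marker cuts, the difference was 3.67, in the other direction. In Cnn1-high cells, where the gene was highest, the difference was -0.24 (SD 0.25 and 0.44) and smaller than the spread between WT plates. Kcnj12 was lower in KO transitional cells, at 27.5, 34.6 and 44.3 CPM against 73.8 and 89.7 CPM (-1.20, SD 0.33 and 0.20). In Cnn1-high and Cnn1-low cells its plates overlapped (-0.03 and -0.35). Kcnmb1 differed by -0.21, -0.02 and -0.25 in the 3 ranges and Kcnk3 by 0.38, -0.57 and 0.21, with overlapping plates in each. Without WT plate 044, Kcnk3 met the rule in Cnn1-low cells at -1.07.

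In ependymal-like cells, 3 of the 10 genes were measured, and 2 of them met the rule as lower in KO (of 11430 genes with enough reads, 1.54% did so and 5.13% in the other direction). The plates stood apart for 2 of the 3 (11.5% of all), and at any size 3 of 3 were lower (39.6% of all). Kcnh1 and Kcnma1 reached 10 CPM and 10% of cells only in WT, so they could meet the rule only as lower in KO. These counts therefore say nothing of a common direction. Kcnh1 stood at 0, 5.33 and 12.5 CPM on the KO plates and 18.6, 70.9 and 42.7 CPM on the WT plates, a difference of -3.16 (SD 1.93 and 0.95). It was found in 6 of 161 KO cells (3.73%, exact interval 1.38% to 7.93%) and 10 of 41 WT cells (24.4%, 12.4% to 40.3%). Kcnma1 stood at 0, 3.98 and 3.24 CPM on the KO and 14.3, 13.1 and 31.6 CPM on the WT plates (-2.79, SD 1.28 and 0.67), with reads in 12 KO and 10 WT cells. Neither pair of groups overlapped, but each rests on few cells with reads, and the WT plates held 10, 13 and 18 cells. Kcnmb1 differed by -0.12 (SD 0.29 and 0.17). Summed smooth muscle markers ran from 1254 to 2160 CPM on the KO and from 242 to 1568 CPM on the WT plates in these cells. The 5 immediate early genes, which cells switch on within minutes of a stimulus, summed to 1745, 810 and 1184 CPM on the KO and 175, 31.0 and 323 CPM on the WT plates, which do not overlap. The part of either list was not tested.

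Endothelial-like cells came from 2 clusters that the genotypes filled unequally, so their genotype values mix kinds of cell. The first, led by Slco1a4 and Cldn5, held 13 KO and 158 WT cells, and the second, led by Ptprb and Cldn5, held 28 KO and 16 WT cells. Over the class 6 genes were measured: 1 was higher in KO by the rule and 2 lower, against 4.49% and 3.18% of 10755 genes. The plates stood apart for 3 of the 6 (12.3% of all), and 2 of 6 were lower at any size (51.2% of all). The 2 lower ones were Kcnj8 (64.0, 28.7 and 85.4 CPM on the KO and 177, 180 and 97.9 CPM on the WT plates, -1.42) and Abcc9 (24.4, 5.50 and 22.7 against 98.7, 99.5 and 84.5 CPM, -2.59). The share of cells with a read went the other way, at 39.0% of KO and 14.9% of WT cells for Kcnj8. For Abcc9 it was 34.1% and 22.4%. These 2 differences in level rested on a few cells. Of the 215 cells, 58 carried markers of a second class, and without them no KO plate held 10 cells, so no genotype value could be had. In the first cluster 28 cells, 4 KO and 24 WT, had pericyte markers at the level of transitional cells, and they held 764 CPM of Kcnj8 and 491 CPM of Abcc9. The other 143 cells of that cluster held 9.85 and 14.3 CPM. Without the 28 cells both differences changed sign, to 3.06 for Kcnj8 and 0.74 for Abcc9.

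Kcnk3 was higher on KO plates in endothelial-like cells, at 16.0, 38.9 and 43.9 CPM against 0.419, 8.39 and 0.167 CPM (3.64, SD 0.76 and 1.66). Smooth muscle markers summed to 4071, 11103 and 7232 CPM on the KO and 3761, 600 and 494 CPM on the WT plates in these cells. Like Kcnk3 they were higher on each KO than on each WT plate, though plates 043 and 044 lay close together. Within a genotype the order of plates was not that of Kcnk3. Their part was not tested. Kcna5 (1.78) and Kcnmb1 (3.17) had overlapping plates. Kcna5 differed in sign between the sets, at -3.33 between plates 043 and 044 (1.25 against 21.7 CPM) and 4.33 between the later plates (36.2 against 1.01 CPM). Kcnmb1 differed by 0.15 in the first and 4.69 in the second. Kcnj2 differed by 0.34 (SD 0.30 and 1.17), less than the spread between plates. It stood at 37.5 CPM in the first-cluster cells without high pericyte markers, 1.14 CPM in those with them and 14.3 CPM in the second cluster.

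**Figure D4:**
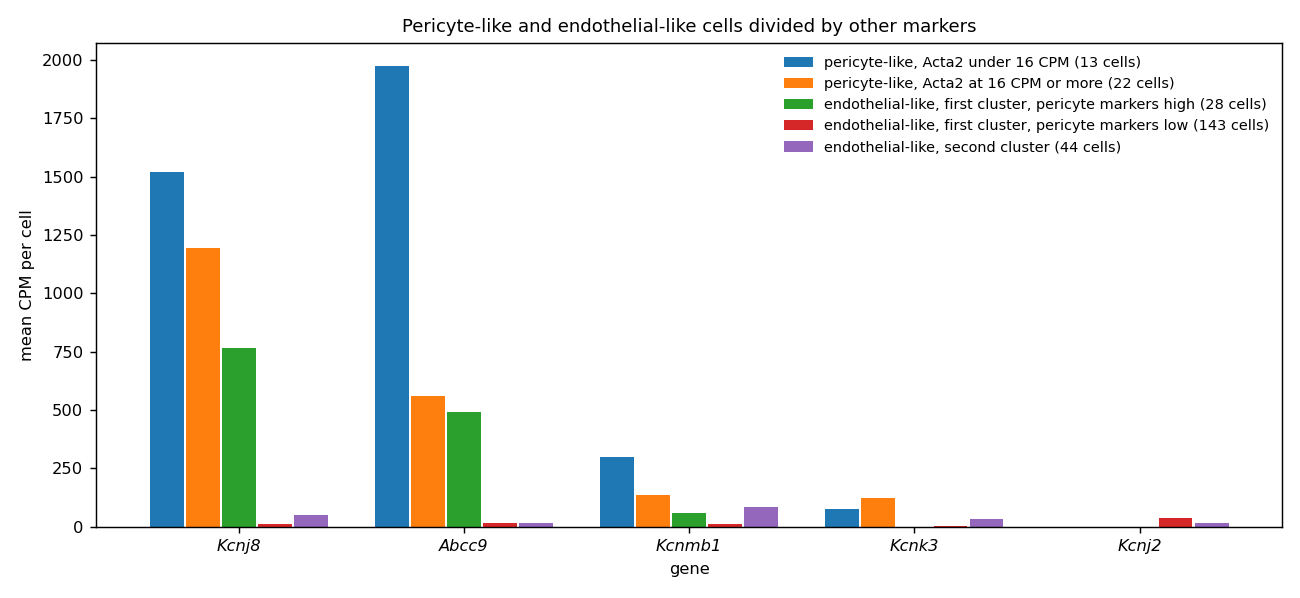
Mean CPM per cell of 5 genes in pericyte-like cells with little or more Acta2 and in endothelial-like cells by cluster and pericyte-marker level (bars, number of cells in the key; no error bars, since the cells are not replicates). Kcnj8 and Abcc9 are high in both kinds of pericyte-like cells and in the 28 endothelial-like cells with high pericyte markers, and low in the other endothelial-like cells.

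A wider list of 83 other potassium channel genes (all further Kcn symbols except the Kcnip genes, plus Abcc8) was read in smooth muscle, with Cnn1-high and Cnn1-low cells together. Most were low: 64 were under 1 CPM and 7 were measured. Of these 7, 0 met the size rule in either direction, while among all 9649 genes with enough reads 2.85% did so upwards and 0.881% downwards, and 1 of the 8 measured members was higher (Kcnj8, 4.28) and 1 lower (Kcna5, -1.33). Kcnj8 reached 10 CPM and 10% of cells only in KO here too. The plates stood apart for 3 of these 8 members, against 10.1% of all measured genes. Below the rule, 6 of the 7 were lower in KO at any size, with a median of -0.54, as were 43.3% of all measured genes, whose median was 0.07. Among the highest were Kcnab1 (a beta subunit of Kv1 channels, 424 CPM in KO and 579 in WT, -0.52), Kcne4 (an accessory subunit, 373 and 429, -0.18) and the antisense transcript Kcnq1ot1, which encodes no channel (128 and 203, -0.61). The plates of the genotypes overlapped for these 3. Without WT plate 044, Kcnq1ot1 met the rule at -1.27.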

How the data were processed

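The table the authors deposited holds unnormalised counts of reads, 1 row per gene symbol and 1 column per cell. The submitters' processing notes name TopHat2 2.1.1, SAMtools 0.1.18, featureCounts and Subread 1.4.6-p5, and the build GRCm38 (mm10). The annotation version and strand setting, and whether cells were filtered, are not given in the sources used here. Counts were divided by the cell's total and multiplied by 1000000 to give CPM, and CPM was averaged over the cells of a class on a plate, so each cell weighs the same. All columns of cells could be mapped to a genotype, and 0 stayed unmapped.

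Cells with at least 50000 counts and 1000 genes were kept (2252 of 2254). They were clustered without Notch3 and the 10 genes (2000 variable genes, 30 principal components, 20 neighbours, Leiden resolution 1, leidenalg 0.10.2), which gave 18 clusters. Clusters were named from 14 marker lists when the list's level reached 0.8 of the highest cluster, at least 3 markers were detected in 25% of cells and the list led the top 10 genes. Mural cells were then placed by mean log2(CPM + 1): Acta2, Tagln and Myh11 under 9 and pericyte markers at 5 or more for pericyte-like, Cnn1 at 5 or more for Cnn1-high, pericyte markers at 7 or more for transitional. These cuts were set after the marker distributions were seen, without reading the 10 genes. No doublet caller was run, since wells were meant to hold 1 sorted cell. Cells with markers of a second class were left out in an alternative.

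The genes and lists were chosen with earlier results of these data known. Genotype differences used plates with at least 10 cells of a class, a pseudocount of 1 CPM and the size rule in the text, checked on simulated data. Named besides the 10 genes were other potassium channel genes that met the size rule in smooth muscle or were among the 5 highest there (2 of these are not reported here), and the 3 genes most correlated with each member that reached 10 CPM in a mural range. TMM factors for the alternative scaling came from edgeR 4.0.16 in R 4.3.3. Coordinates and exon lengths came from GENCODE M21 (27956 entries matched, 90.3%), promoters from RefSeq. Shares carry exact Clopper-Pearson intervals at 95%, and a share of 0 its limit of 3 cells.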

Additional observations from a re-analysis of the deposited data

Results flagged for a closer look

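Kcnj8 was higher on KO than WT plates in the contractile mural ranges and lower in endothelial-like cells, which drew attention because the plates of the genotypes stood apart in opposite directions. The largest gap between 2 classes was 6.34 log2 units, and that difference between classes was not tested. Abcc9 showed the same between transitional and endothelial-like cells, with a gap of 7.07, likewise not tested. In both, the endothelial side turned when 28 cells with high pericyte markers were left out, to 3.06 and 0.74. The share of endothelial-like cells with a read was higher in KO than in WT for both genes.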

How the results depend on the processing

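No paired analysis was possible because the labels give no replicate numbers that tie KO to WT plates and no result comes from a test. With 1 plate left out in turn, the number of genes meeting the rule ran from 4 to 5 for transitional against Cnn1-high cells (4 with all plates). For genotype it ran from 1 to 4 in Cnn1-high cells (2), 2 to 5 in Cnn1-low cells (3), 2 to 5 in transitional cells (4), 2 to 4 in endothelial-like cells (3) and 0 to 3 among the other channel genes (0), and it was 2 throughout in ependymal-like cells. The low counts of 1 in Cnn1-high and 2 in transitional cells came without KO plate 043, and those of 4 in Cnn1-high cells, 5 in Cnn1-low cells and 3 other channel genes without WT plate 044. With WT plates alone 2 genes met the rule between transitional and Cnn1-high cells. Thinning each cell to 50000 counts gave 1 gene in Cnn1-high cells and 1 other channel gene. At 5 cells per plate 2 genes met the rule in transitional cells. Plates 043 and 044 alone gave 5 genes in endothelial-like cells and 2 other channel genes, and the later plates alone likewise 5 and 2, since fewer plates have to stay apart. Without the filter on low values 2 other channel genes met the rule. The share of all measured genes that met the rule under each of these settings is not given here. The counts therefore show only how the calls depend on the setting, and cannot be set against a background.

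Placing mural cells by cluster left 80.1% of cells in the same class and gave 1 gene in transitional cells and 1 other channel gene. It turned Kcnj8 (-0.62) and Abcc9 (-0.87) in transitional cells and Kcnma1 (3.67) in Cnn1-low cells. Of the 13 pericyte-like cells with little Acta2, 12 of them WT, this placement moved 12 to the transitional range. Leaving out endothelial-like cells with pericyte markers turned Kcnj8 (3.06) and Abcc9 (0.74) there. That setting, a contractile cut of 10, and the settings for the other channel genes apart from TMM factors were added after the data were seen. No other called value changed sign under the settings run, and TMM factors and clustering with all variable genes moved no count of genes past 1.5 times. The genotype difference in pericyte-like cells was not run under the alternatives, since no WT plate held 10 such cells. In endothelial-like cells, leaving out cells with markers of a second class, or asking for 20 cells per plate, left no KO plate and gave no value, and 20 cells per plate left no WT plate of ependymal-like cells.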

Other observations

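A few values outside the comparisons stand out by size. Fibroblast-like cells held Kcnj8 reads in 13.5% of 170 cells (7.65% thinned), at 0 to 92.3 CPM over the 6 plates, with the highest value on WT plate 469 (14 cells). Astrocyte-like cells of WT plates 468 and 469 held 29.9 and 33.5 CPM of Kcnma1, with reads in 15.9% of 271 cells (13.3% thinned). In the same astrocyte-like cells Abcc9 reads were found in 41.3% of cells (12.9% thinned) at 2.77 and 3.24 CPM, a wide share at a low level.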
